A study of Mus musculus with 2 samples.

Results

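The suppressors of cytokine signalling are a family of 8 mouse genes, Socs1 to Socs7 and Cish, which encodes the protein CIS. The members were chosen by gene symbol, and all 8 were measured, out of 22180 genes that the platform's gene table names through probe sets with a single symbol. They were represented by 11 probe sets, since Socs2, Socs3 and Cish had 2 each. Levels of mRNA were compared between 1 Affymetrix array of RAW264.7 cells labelled HuR-deficient and 1 array of wildtype RAW264.7 cells. RAW264.7 is an established mouse macrophage line, and HuR, made from Elavl1, binds mRNAs at AU-rich and U-rich stretches. Each culture, HuR-deficient and wildtype alike, had been given poly(I:C) of high molecular weight, an artificial double-stranded RNA, with lipofectamine for 8 hours at a labelled dose of 1 mg/ml. The sources used here do not say how HuR was disrupted or whether the deficient line is a single clone. Unstimulated cells were not analysed here, so the values do not show how the family responds to poly(I:C). Genotype cannot be told apart from any other difference between the cultures or arrays, as each group is 1 array. No significance test between the groups was possible.

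SOCS proteins are feedback brakes on cytokine signalling. A cytokine receptor switches on Janus kinases (JAKs), which activate STAT transcription factors, and STATs in turn switch on several SOCS genes. The SOCS protein then binds the receptor or the kinase through its SH2 domain, while its SOCS box recruits a ubiquitin ligase built from elongin B, elongin C, cullin 5 and the RING protein encoded by Rnf7. SOCS1 and SOCS3 also carry a kinase inhibitory region that blocks JAKs directly. In macrophages SOCS1 is best known for restraining interferon and Toll-like receptor signalling, and SOCS3 for restraining signals through gp130, the receptor subunit that interleukin-6 uses.

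RefSeq promoter windows (GRCm38.p6) were in hand for 4 of the 8 genes, Cish, Socs1, Socs3 and Socs4, and were read over the 250 bases before the annotated start. The searched motifs were TTCNNNGAA, the palindromic STAT site, and AANNGAAA, the core bound by interferon regulatory factors, each on both strands. The windows of Socs1 and Socs3 are shown because they were the ones among the 4 to hold a match, and these genes are the inducible feedback inhibitors with a kinase inhibitory region. Capitals mark the matched bases. The Socs1 window lies at chr16:10785537-10785786 and the Socs3 window at chr11:117969367-117969616, both on the minus strand and printed 5′ to 3′ on the gene's strand.
Socs1: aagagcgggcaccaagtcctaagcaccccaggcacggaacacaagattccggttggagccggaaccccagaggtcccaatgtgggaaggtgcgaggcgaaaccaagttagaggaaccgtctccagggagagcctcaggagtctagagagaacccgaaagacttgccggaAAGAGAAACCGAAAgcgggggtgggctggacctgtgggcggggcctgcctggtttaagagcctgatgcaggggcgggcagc
Socs3: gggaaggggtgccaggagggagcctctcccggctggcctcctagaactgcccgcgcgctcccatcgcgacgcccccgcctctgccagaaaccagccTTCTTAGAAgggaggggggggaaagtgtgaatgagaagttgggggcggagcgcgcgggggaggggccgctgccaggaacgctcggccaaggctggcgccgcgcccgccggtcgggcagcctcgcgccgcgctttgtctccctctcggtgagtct
Socs1 held 2 matches to AANNGAAA, from base 81 to base 74 and from base 75 to base 68 before the start, which overlap, and none to the STAT site. Socs3 held 1 match to TTCNNNGAA, from base 154 to base 146 before the start. Over all 32851 promoter windows of this length, 21.3% held at least 1 AANNGAAA, 4.20% held 2 or more, and 7.02% held a TTCNNNGAA. These matches describe the letters of the windows and were not tested as binding sites.

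Signals below are log2 values from robust multi-array averaging (RMA), and every difference is the HuR-deficient value minus the wildtype value. Probe sets differ in how strongly they bind, so signals are compared between arrays for 1 probe set and never between genes, and no order of levels within the family is given. Genes were kept if at least 1 of their 2 values was 4.38 or more, the median over all named genes, and 7 of the 8 members passed this signal filter. Where a gene had several probe sets, the strongest by mean signal was used, and for the members the weaker one is given beside it. Irf8, Elob, Cul5, Dcun1d1, Spsb1 and Pim1 also had 2 probe sets, and only the strongest is given below. To show how large a difference is for its signal range, each is set beside the 500 genes nearest in mean signal, which gives a spread between genes and not between replicates.

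By the probe set used, no SOCS family gene reached a 2-fold difference between the HuR-deficient and the wildtype array. Of the 11905 filtered genes in all, 1.99% lay 2-fold apart or more, so 0 of 7 members is near that background. The same 7 members also stayed below 1.5-fold, a distance that 10.8% of the filtered genes reached. The differences of the 8 genes ran from -0.38 for Socs3 to 0.26 for Cish, with 3 above 0 and 5 below. Their median was -0.01, against 0.00 over all named genes, and their median size regardless of sign was 0.16, against 0.22 over all named genes.

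**Figure D1:**
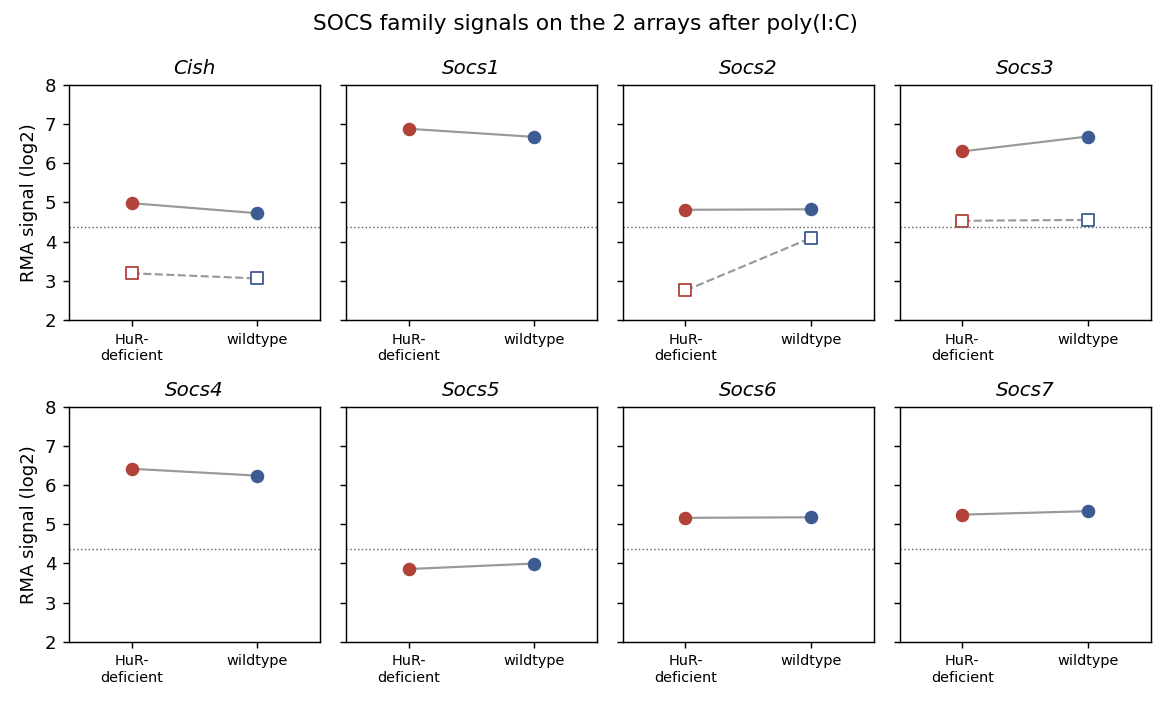
RMA signal (log2, vertical axis) of each SOCS family gene on the HuR-deficient array (left, red) and the wildtype array (right, blue), with 1 array per group and no error bar. Filled circles are the probe set used, open squares the weaker probe set of Cish, Socs2 and Socs3, and the dotted line is the filter's floor of 4.38. The lines are nearly level apart from the weaker Socs2 probe set, at 2.75 on the HuR-deficient array and 4.09 on the wildtype array.

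Socs1, which blocks JAKs and is a main brake on interferon signalling, had a signal of 6.88 on the HuR-deficient array and 6.67 on the wildtype array. The HuR-deficient value was slightly the higher, by 0.21 or 1.15-fold, a distance matched or exceeded by 50.6% of the 500 genes of nearest signal.

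Socs3, the brake on gp130 and on the receptors for granulocyte colony-stimulating factor and leptin, had a signal of 6.30 on the HuR-deficient array and 6.68 on the wildtype array. This was the family's widest gap in the probe sets used, with the HuR-deficient value 1.30-fold lower (difference -0.38), and 26.0% of the genes nearest in signal lay at least as far apart. Its weaker probe set did not show the gap: it read 4.53 on the HuR-deficient array and 4.56 on the wildtype array, a difference of -0.02. The size of the Socs3 difference therefore depended on which probe set was read.

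Cish encodes CIS, a STAT5-induced inhibitor of signalling from receptors of the interleukin-2 and erythropoietin type. Its signal was 4.98 on the HuR-deficient array and 4.73 on the wildtype array, a difference of 0.26 that 45.0% of the genes nearest in signal matched or exceeded. The weaker Cish probe set, at 3.19 on the HuR-deficient array and 3.06 on the wildtype array, lay below the floor on each and differed by 0.13. Both Cish probe sets were thus a little higher on the HuR-deficient array.

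Socs2 restrains growth hormone signalling and is likewise induced by STAT5. The probe set used gave 4.81 on the HuR-deficient array and 4.83 on the wildtype array, a difference of -0.01, which 96.0% of the genes nearest in signal matched or exceeded. The weaker probe set (17274184) gave 2.75 on the HuR-deficient array and 4.09 on the wildtype array, which is 2.53-fold lower on the HuR-deficient array (difference -1.34). It was the 1 probe set of the family's 11 past 2-fold, where 1.07% of all 23521 one-symbol probe sets were past it in that direction. That distance was matched or exceeded by 1.00% of the 500 genes of nearest signal, but both of its values were below the floor, and neither was shown to lie above background.

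The gap between the probe sets of 1 gene was set beside that of all genes with several. The Socs2 differences lay 1.33 apart, a size that rests on values of the weaker set below the floor, and 17 of 1082 such genes (1.57%) had probe sets that far apart or farther. The Socs3 probe sets lay 0.36 apart, which 41.8% of these genes matched, and those of Cish 0.12 apart, which 76.0% matched; the median gap was 0.30. The sources used here do not say which exons the Socs2 probe sets read; both differences were negative, but they do not give a single size for Socs2.

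**Figure D2:**
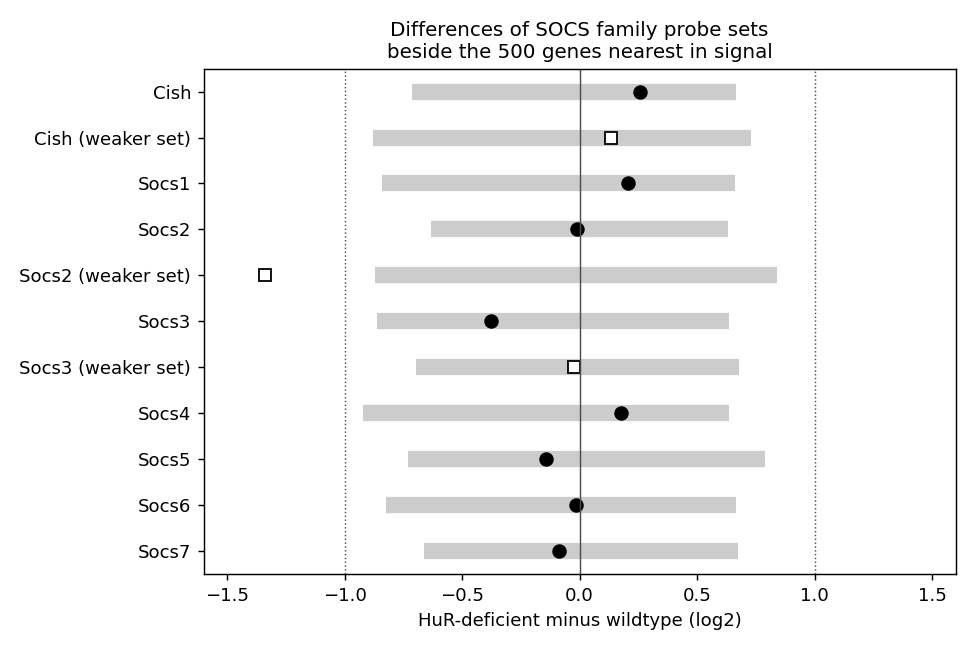
Difference of each SOCS family probe set, HuR-deficient minus wildtype (log2, horizontal axis), with circles for the probe set used and open squares for the weaker one. Grey bars span the central 95% of differences among the 500 genes of nearest signal, and dotted lines mark 2-fold. Of the 11 probe sets 10 lie inside their grey bar, and the weaker Socs2 probe set, at -1.34, lies outside it.

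The members with long amino-terminal regions, Socs4 to Socs7, are less tied to STAT feedback and are known mainly from growth factor and insulin signalling. Socs4, which like Socs5 has been linked to the epidermal growth factor receptor, had a signal of 6.42 on the HuR-deficient array and 6.24 on the wildtype array, a difference of 0.17. Socs5 had 3.856 on the HuR-deficient array and 3.997 on the wildtype array (difference -0.14) and was the member below the floor on both arrays, so whether it rose above background is not known. Socs6, which binds the receptor kinase KIT and insulin receptor substrates, had 5.16 on the HuR-deficient array and 5.18 on the wildtype array, a difference of -0.01. Socs7, which binds the adaptor NCK, had 5.25 on the HuR-deficient array and 5.33 on the wildtype array, a difference of -0.09. In these 4 genes the arrays were close, and between 59.8% of the genes nearest in signal (Socs4) and 95.4% (Socs6) lay at least as far apart.

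**Figure D3:**
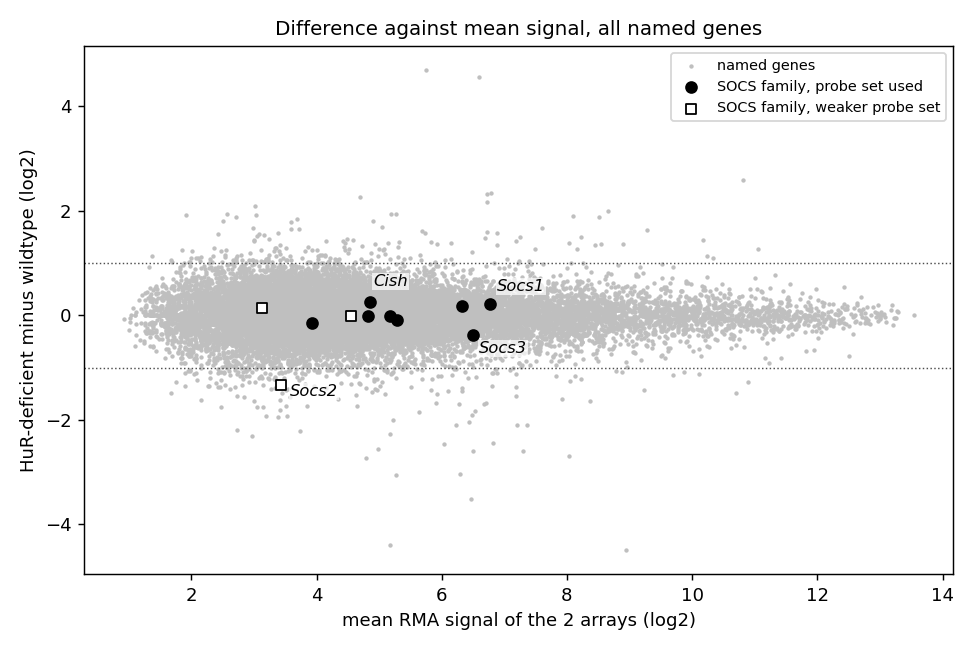
Difference, HuR-deficient minus wildtype (log2, vertical axis), against the mean RMA signal of the 2 arrays (log2, horizontal axis) for the 22180 named genes (grey). SOCS family probe sets are black circles (used) and open squares (weaker), and dotted lines mark 2-fold. The family sits within the main cloud, with the weaker Socs2 probe set below the lower dotted line.

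Elavl1, the gene for HuR, had a signal of 7.75 on the HuR-deficient array and 7.68 on the wildtype array (difference 0.07), and the sources used here do not say whether its probe set lies in the disrupted part. The Elavl1 values thus do not check the genotype label, and each direction given is that of the cells so labelled. Of 12 macrophage markers 11 passed the filter, among them Cd68 at 11.34 on the HuR-deficient array and 11.55 on the wildtype array and Lyz2 at 12.20 on the HuR-deficient array and 12.34 on the wildtype array. Adgre1, which encodes the F4/80 antigen, was the marker past 2-fold, at 6.51 on the HuR-deficient array and 4.94 on the wildtype array. On the HuR-deficient array 3 of the 11 were higher and 8 lower, with Spi1 (0.33) next highest and Itgam (-0.33) lowest. Of 21 measured markers of other cell types 7 passed the filter, none of them at 2-fold. Cd4 (0.26) and Col1a1 (0.16) lay highest of the 7, and Krt18 (-0.61) and Cdh5 (-0.49) lowest. Cd4, Krt18 and Cdh5 each had a value below the floor. Over all 22180 named genes 11905 passed the filter, and 1.99% of those lay 2-fold apart or more.

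The ubiquitin ligase that the SOCS box recruits was measured through 12 of 14 listed genes, all above the filter. None reached 2-fold, which 1.99% of all filtered genes did. On the HuR-deficient array 6 were higher and 6 lower, and their median difference was -0.02. Rnf7, the RING subunit that pairs with cullin 5, came closest, with 8.76 on the HuR-deficient array and 7.76 on the wildtype array; its difference of 0.998 was just short of the 2-fold line, and 2.60% of the genes nearest in signal lay as far apart. The scaffold gene Cul5 differed by -0.09, the elongin genes Elob by 0.30 and Eloc by -0.19, and Cul2, a related scaffold, by -0.29. Arih2, a ligase that works with neddylated cullin 5, differed by 0.60, and Dcun1d1, which promotes cullin neddylation, by -0.54.

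Other proteins with a SOCS box, mainly the ankyrin-repeat ASB and the SPRY-domain SPSB families, had no member at 2-fold. Over all filtered genes 1.99% were, so none in a list this short is near that background. Of 27 measured genes 16 passed the filter, and 13 were higher and 13 lower on the HuR-deficient array, with a median of 0.00 over the 27. Among the 16 that passed, Asb13 (difference 0.82) and Asb16 (0.60) lay highest, and Asb7 (-0.56) and Asb3 (-0.42) lowest. Asb16 had its wildtype value below the floor, and Asb7 and Asb3 had their HuR-deficient values below it. Spsb1 and Spsb2, which bind inducible nitric oxide synthase, differed by 0.45 and 0.22.

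The kinases and factors that SOCS proteins hold in check stayed within 2-fold. So did most filtered genes, of which 1.99% lay 2-fold apart or more. Of 9 measured JAK and STAT genes 8 passed the filter, 6 of them higher on the HuR-deficient array and 2 lower. Over all filtered genes 5871 of 11905 were higher. The median of the list was 0.24 over the 9 and 0.15 over the 8 that passed. Tyk2, a kinase of the interferon receptor, had 5.71 on the HuR-deficient array and 5.05 on the wildtype array (difference 0.66). Jak2, which SOCS1 and SOCS3 inhibit, had 7.19 on the HuR-deficient array and 6.60 on the wildtype array (difference 0.59). Jak1 differed by 0.02, Stat2 by 0.07, Stat3 by 0.29 and Stat6 by 0.24. Stat5a and Stat5b, the usual inducers of Cish and Socs2, differed by -0.22 and -0.05, the HuR-deficient value of Stat5b being below the floor. Stat4 did not pass the filter, and Jak3 had no one-symbol probe set and is not analysed here.

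Of the receptors on which SOCS proteins act, 34 were measured and 16 passed the filter, with a median of -0.16 over the 34. None was at 2-fold, where 1.99% of all filtered genes were. The interferon gamma receptor genes Ifngr1 and Ifngr2, through which SOCS1 acts, differed by -0.25 and -0.23, while the type I interferon receptor genes Ifnar1 and Ifnar2 differed by 0.05 and -0.41. Il6st, which encodes gp130, the docking partner of SOCS3, was below the floor at 3.16 on the HuR-deficient array and 3.63 on the wildtype array, and so were Csf3r, Lepr, Ghr and Il2rb. Il10ra, the interleukin-10 receptor chain, lay highest among those that passed (0.75), followed by Il12rb1 (0.30), both with wildtype values below the floor. Il10rb (-0.50) and Il27ra (-0.44) lay lowest.

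The genes of the cytokines that act on these receptors ran from -1.12 to 1.49 among those above the filter. The receptors ran from -0.50 to 0.75. Kitl set the -1.12 end and Il10ra the 0.75 end, each with a value below the floor. The ranges therefore give no contrast between the lists. Of 18 ligand genes above the filter, 2 were higher on the HuR-deficient array by 2-fold or more, where 0.882% of all filtered genes were, and 1 was lower by 2-fold or more, where 1.11% were; the median over the 31 measured was 0.08. Of these 3 genes, Il27 alone had both values at the floor; Il10 and Kitl passed the filter only through the array on which they were the higher, so the count does not support a difference of the list. Il27, a cytokine that signals through gp130, had 8.98 on the HuR-deficient array and 7.48 on the wildtype array. Il10, an inducer of Socs3 in macrophages, had 5.08 on the HuR-deficient array and 3.83 on the wildtype array, the wildtype value below the floor. Kitl, the ligand of KIT, had 3.26 on the HuR-deficient array and 4.38 on the wildtype array, and only the wildtype value reached the floor. Igf1 (-0.99) was just inside 2-fold. Il6 differed by 0.25 and Ifnb1, at 11.80 on each array, by 0.0050.

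Genes that STAT3, STAT5 or STAT6 are known to switch on, as they do Socs3, Socs2 and Cish, went both ways. Of 21 above the filter, 2 were higher on the HuR-deficient array by 2-fold or more, 1 was lower by as much, and the median over the 24 measured was 0.02; the shares over all filtered genes were 0.882% and 1.11%. Ccnd2, which encodes cyclin D2 and is a STAT5 target in lymphoid cells, had 8.43 on the HuR-deficient array and 6.76 on the wildtype array, and Il10, counted above among the ligands and below the floor on the wildtype array, was the other gene past 2-fold. Il1rn, the interleukin-1 receptor antagonist gene, had 5.42 on the HuR-deficient array and 7.47 on the wildtype array, which is 4.14-fold lower. Myc (-0.77) lay next lowest among those that passed. The STAT-induced kinase genes Pim1 and Pim3 differed by 0.11 and 0.31, Bcl3 by 0.46, Junb by 0.01 and Bcl6 by -0.06.

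Genes of the interferon response, which SOCS1 restrains, lay mostly on the positive side. Of 19 measured, all above the filter, 17 were higher on the HuR-deficient array and 2 lower, with a median of 0.36; over all filtered genes 5871 of 11905 were higher, with a median of 0.00. Only Cxcl9, an interferon gamma-induced chemokine, passed 2-fold, on the higher side, which 0.882% of all filtered genes did. Cxcl9 had 6.61 on the HuR-deficient array and 5.24 on the wildtype array. Irf8, a transcription factor of the macrophage lineage, was next at 10.02 on the HuR-deficient array and 9.03 on the wildtype array (difference 0.98). Irf9 (-0.09) and Mx1 (-0.03) were the 2 below 0. Socs1, itself a gene of this response, had a difference of 0.21, smaller than the list's median. A higher level of interferon-response genes in these arrays was known when this list was drawn up, so the list gives no independent evidence of its direction.

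Other restraints on JAK-STAT signalling, the PIAS proteins, phosphatases and adaptors, had no member at 2-fold, where 1.99% of all filtered genes were. All 16 measured genes passed the filter, and their median difference was -0.04. Cbl, a ubiquitin ligase gene, lay highest (0.39), followed by Ptpn6, the gene for the phosphatase SHP-1 (0.30). Pias2 (-0.39) and Pias4 (-0.19) lay lowest, and Usp18, a brake on the type I interferon receptor, differed by 0.06. Of 14 measured genes for other proteins reported to bind SOCS proteins, 10 passed the filter, again with none at 2-fold and a median of 0.03 over the 14. They ran from Irak1 and Rasa1 (-0.39 each) to Rela (0.16) and Nck1 (0.30), and Tirap, the Toll-like receptor adaptor that SOCS1 targets, differed by 0.15.

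**Figure D4:**
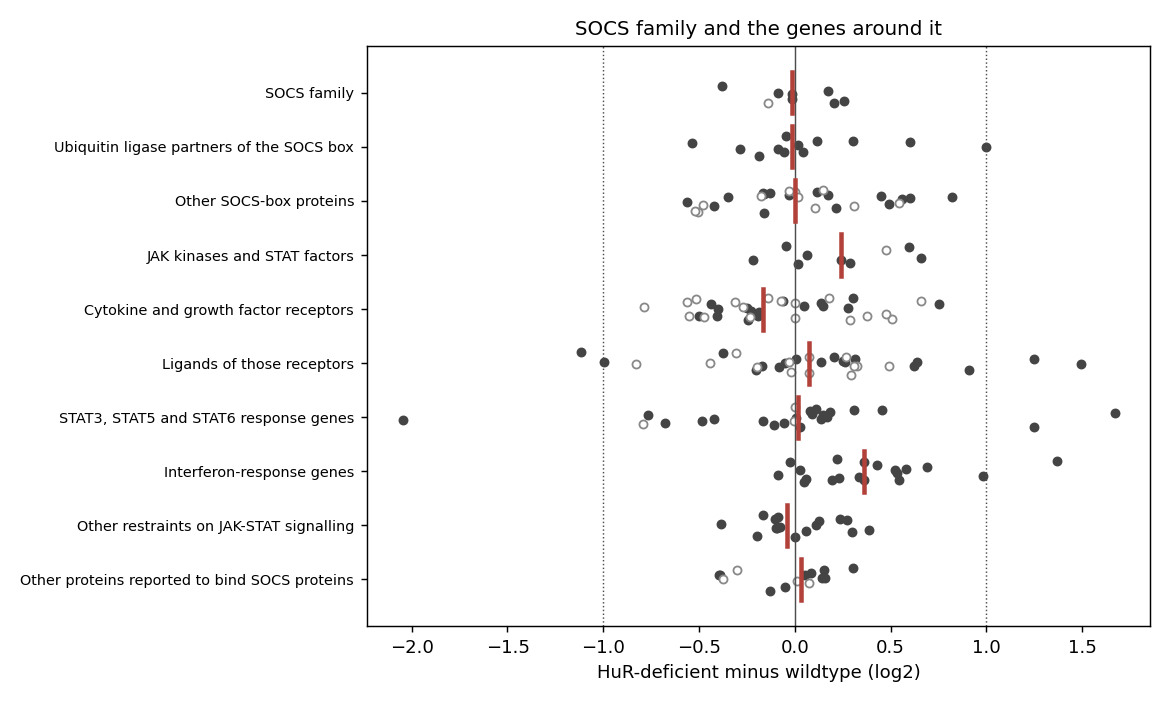
Difference, HuR-deficient minus wildtype (log2, horizontal axis), of every measured gene in the SOCS family and in 9 lists around it. Filled points passed the signal filter, open points did not, red bars are the medians over all measured genes of a list, and the vertical spread of points within a list is arbitrary. Cytokine and STAT3, STAT5 and STAT6 response genes cross the dotted 2-fold lines on both sides and Cxcl9 crosses on the positive side, while no SOCS family gene does in the probe set used.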

How the data were processed

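The authors deposited log2 values for 1 array per group, which per the submitters' processing notes come from RMA; the sources used here give neither the version nor a genome build. The values lie between 0.434 and 13.77, from which the log2 scale was taken. RMA forces the arrays to like distributions and so hides any shift in a cell's total mRNA, and fewer cells of a type and less RNA per cell cannot be told apart. Detection calls were not used here. With so few arrays, their number limits the precision.

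Of 41345 probe sets, 23521 had 1 gene symbol, 1814 several and 16010 none; only the first were used. The probe set with the highest mean stood for each gene. Genes whose higher value reached 4.38 were kept. The named genes are the members, Elavl1, Ifnb1, Il6, Il10 and the measured STAT genes, up to 2 genes per list and direction, and every list gene at 2-fold. Other genes named for their role were chosen after their values were seen. The members and the 12 lists were chosen with earlier results of these data known. No gene was named for a like pattern, since 2 arrays give 1 difference per gene. Steps were tested on simulated data. Alternatives were median centring, repeated quantile normalisation, removal of a loess trend (span 0.3), averaged or weaker probe sets, other filters and other thresholds. The software was matplotlib 3.10.9, statsmodels 0.14.6, pandas 2.3.3 and numpy 2.4.6 under Python 3.11.15.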

Additional observations from a re-analysis of the deposited data

How the results depend on the processing

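No SOCS family gene reached the threshold under any of the 9 alternatives for the count of members. These do not include the weaker probe sets on their own. Some of the 9 could not raise a count of 0. Centring subtracted a median of 0, and the 3-fold threshold and the stricter filters only keep part of the genes already counted. With averaged probe sets 6 members passed the filter, against 7 in the main setting. With no replicates, a move was judged against the robust SD of the 500 genes nearest in signal. Of 32 recomputed member differences 31 moved by less than that, and none changed sign. Part of the 32 could not move, so the share overstates the stability. Centring left every difference as it was, and averaging could change only Socs2, Socs3 and Cish, which have several probe sets. The exception among the 32 was Socs2, at -0.68 when its probe sets were averaged. The weaker probe set, an alternative chosen after seeing the data, gave -1.34 for Socs2 and -0.022 for Socs3. The family's median stayed between -0.05 and -0.01. The count of all genes, 105 higher and 132 lower on the HuR-deficient array at 2-fold, depended on the filter and the threshold by construction: 185 and 232 with no filter, 63 and 86 when the higher value had to reach the 75th percentile of signals, and 55 and 76 when the lower value had to reach the median. At 1.5-fold 648 were higher and 633 lower, and at 3-fold 22 and 33. No paired analysis was possible because each group has 1 array, and no replicate could be left out for the same reason. Signals below the floor, as for Socs5 and the weaker Socs2 and Cish probe sets, were not shown to lie above background.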
